A study of Mus musculus with 18 samples.

Results

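The cytosolic ribosomal protein genes encode the proteins of the ribosome outside mitochondria. They were taken as the gene names in both count tables that are Rpl or Rps with a number and at most a final a, x or l, together with Rplp0, Rplp1, Rplp2 and Rpsa. This rule, which uses no measured value, gave 83 of the 54352 names shared by the tables, of which 32 are small subunit names and 51 are large subunit names, stalk proteins included. All 83 had counts in every library and passed the filter on low counts. The rule leaves out ribosomal protein genes with other names, such as Rps3a1, Fau and Rack1. It keeps Rpl32l, Rpl6l and Rps4l, the 3 members that the GENCODE vM21 annotation types as pseudogenes, against 80 typed as protein coding.

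RNA was sequenced from 18 mouse libraries in 9 groups of 2. Knock-in mouse embryonic stem cells (mESCs) carried FLAG-tagged EED, a core subunit of Polycomb repressive complex 2, either with lysine 19 changed to arginine (K19R) or of wildtype sequence (FLAG-WT). Both lines were taken at day 0 as stem cells in leukemia inhibitory factor (LIF) with inhibitors of MEK and GSK3 (2i), and at days 2, 6 and 10 as embryoid bodies without LIF and 2i. Embryoid bodies are aggregates grown in suspension in which stem cells differentiate. The ninth group was wildtype mESCs, without the FLAG knock-in, in LIF without 2i. The tag is thus shared by K19R and FLAG-WT and absent from the wildtype cells. Nothing in the labels says how many clones each line represents or whether the 2 libraries of a group are separate cultures, and p-values therefore cover the spread of these libraries alone.

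Library totals lay between 14190166 and 37375083 counted read pairs. The 8 stem cell markers summed to between 5194 and 6244 CPM (counts relative to library size, corrected by TMM) in the 6 undifferentiated libraries. At day 10 they summed to between 698 and 854 CPM in K19R and between 93.1 and 99.8 CPM in FLAG-WT, while 7 endoderm markers summed to at least 14343 CPM in K19R and 26109 CPM in FLAG-WT. The 2 FLAG-WT libraries of day 0 differed in these endoderm markers, which summed to 10.6 CPM in replicate 1 and 83.6 CPM in replicate 2, with 43 and 1391 read pairs of Afp, against 7.83 and 7.90 CPM in K19R. Every FLAG-WT change from day 0 uses that library. The bulk RNA of embryoid bodies is a mixture, so fewer cells of a type and less RNA per cell cannot be told apart.

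Each ribosome holds 1 copy of most ribosomal proteins, and their genes are among the most abundantly transcribed in growing cells. In mammals their mRNAs typically start with a C followed by a run of pyrimidines, the terminal oligopyrimidine motif, through which mTORC1 signalling and the RNA-binding protein Larp1 control translation. MYC proteins are known activators of many of these genes and of the genes for ribosome assembly. A few members have close copies, some of them with restricted expression. Rpl10l and Rpl39l are known from the testis, Rpl3l from heart and skeletal muscle, and Rps27l as a p53 target.

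RefSeq start-site windows were found for 61 of the 83 members, on the GRCm38.p6 build. The 8 shown are members whose values carry the results below and common members beside their copies. Each has 25 bases before the RefSeq start and 15 bases from it, 5′ to 3′ on the gene's strand. Capitals mark the longest unbroken run of C and T within 10 bases of the start. Runs are cut at the edge of that stretch, as in Rps27l, and the first of equal runs is marked, as in Rpl39.
Rps6: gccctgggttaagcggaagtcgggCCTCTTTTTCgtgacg
Rps2: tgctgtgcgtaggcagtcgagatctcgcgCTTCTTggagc
Rps27: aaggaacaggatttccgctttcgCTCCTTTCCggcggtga
Rps27l: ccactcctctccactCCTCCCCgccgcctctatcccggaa
Rpl39: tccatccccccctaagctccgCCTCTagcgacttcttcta
Rpl39l: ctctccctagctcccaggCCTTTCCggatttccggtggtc
Rpl10l: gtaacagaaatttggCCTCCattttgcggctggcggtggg
Rpl3l: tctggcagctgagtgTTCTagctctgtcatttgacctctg

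These windows lie at chr4:86857353-86857392 on the minus strand (Rps6), chr17:24720038-24720077 on the plus strand (Rps2), chr3:90213634-90213673 on the minus strand (Rps27) and chr9:66946061-66946100 on the plus strand (Rps27l). Those of Rpl39 and Rpl10l are at chrX:37085208-37085247 and chr12:66284387-66284426 on the minus strand, and those of Rpl39l and Rpl3l at chr16:10170203-10170242 and chr17:24727801-24727840 on the plus strand. In Rps6 the run is 10 bases long and spans the start, and in Rps27 it is 9 bases. In Rpl10l and Rpl3l the runs are 5 and 4 bases and end before the start. A run of at least 7 pyrimidines was found in 25 of the 61 member windows (41%), and in 12.8% of 27025 RefSeq start windows of the same width. The letters CCGGAAG, the core bound by ETS factors, were searched on both strands of the 300-base promoters and were present in 24 of 61 members (39.3%) and in 9.15% of all. TATAAA was present in 6 members (9.84%) and in 14.2% of all promoters. Annotated starts can differ from the bases used in these cells, so a window without the run says nothing of the mRNA.

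The member genes lie on 19 chromosomes, with 14 of them on chromosome 7. Their levels were set per kilobase of exon, as CPM scaled by TMM (a correction for library composition) and divided by gene length, averaged over the 9 groups. The median over members was 305 CPM per kb, and 48 of 83 lay within 2-fold of it. The 5 highest were Rplp1 with 1617 CPM per kb, Rpl4 with 1248, Rpl19 with 1159, Rps15 with 1070 and Rpl8 with 976. Rplp1 is an acidic protein of the stalk that recruits translation factors, and Rpl8 lies near the peptidyl transferase centre. The 5 lowest were Rps10 with 4.96 CPM per kb, Rpl6l with 4.46, Rpl32l with 1.93, Rpl24 with 0.776 and Rpl3l with 0.670. Of the exon bases of Rps10, 28.7% also belong to exons of RPS10-NUDT3 or Gm15420, and of those of Rpl24, 47% belong to Gm28037. The recorded counting command did not assign a read pair that falls in 2 genes, and RPS10-NUDT3 and Gm28037 had 0 counts. Pseudogene names of Rps10 with the suffix ps held counts equal to 62.3% of its own, and the part of either in the low levels was not tested. Without length scaling, 1 of these 5 highest members, Rpl4 with a mean of 2505 CPM, was still among the first 5.

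Members together held between 2.97% and 7.35% of the counts of a library. In K19R the shares of the 2 libraries were 5.94% and 5.74% at day 0, 6.39% and 7.35% at day 2, 7.07% and 7.27% at day 6, then 3.999% and 3.95% at day 10. In FLAG-WT they were 5.72% and 5.73% at day 0, 6.00% and 5.87% at day 2, 4.78% and 4.60% at day 6, then 2.97% and 3.27% at day 10. Both K19R libraries lay above both FLAG-WT libraries at every day, by least at day 0 and by most at day 6, where the mean share was 7.17% ± 0.14 in K19R and 4.69% ± 0.13 in FLAG-WT (SD, n = 2 each). The wildtype mESCs in LIF held 6.78% and 6.29%. With 2 libraries a group an exact two-sided permutation test of a share cannot give a p under 0.333, so the spread is given alone. Small subunit members supplied between 37.0% and 42.1% of the member counts in all libraries.

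**Figure D1:**
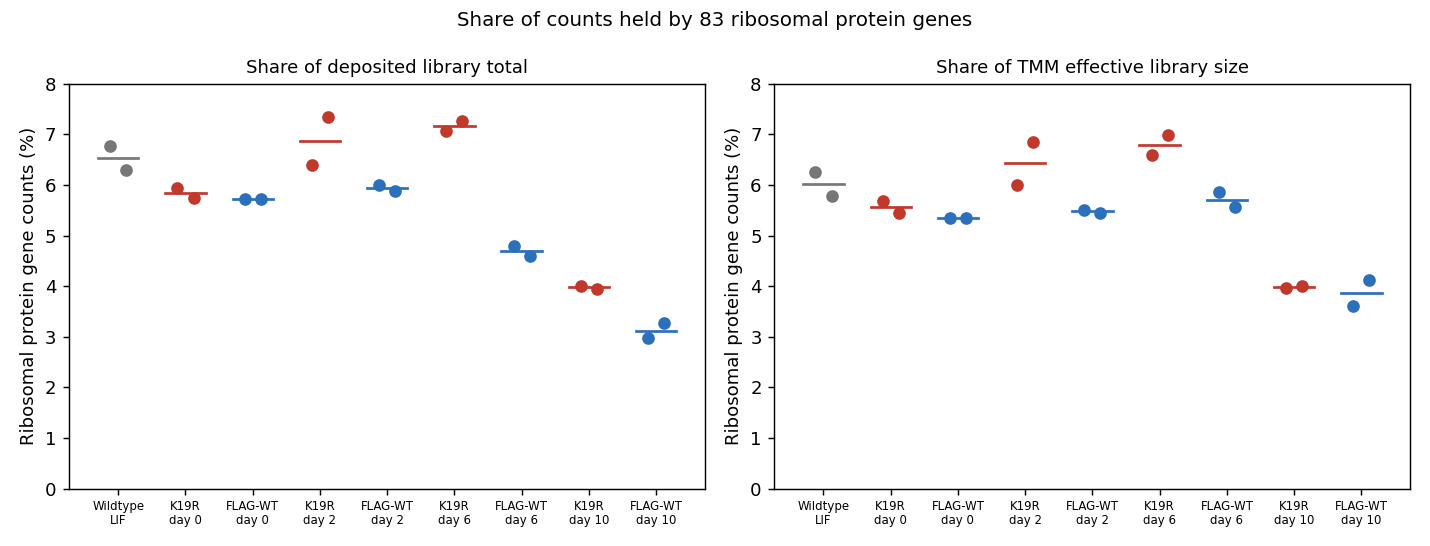
Share of counts (%) held by 83 ribosomal protein genes in each of 18 libraries (points) with group means (lines), of the deposited library total (left) and of the TMM effective library size (right). At day 6 the K19R means are 7.17% and 6.79% in the panels, and the FLAG-WT means 4.69% and 5.71%.

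A share also moves with what else fills the library. The TMM factors were between 0.986 and 1.09 in 14 libraries, and between 0.796 and 0.829 in the 4 FLAG-WT libraries of days 6 and 10. The 50 most abundant genes held means of 15.6% and 15.9% of counts in K19R at days 6 and 10, against 18.7% and 18.8% in FLAG-WT. Genes of the mitochondrial genome held a mean of 1.72% in K19R and 2.37% in FLAG-WT at day 6. On the TMM-scaled library size, the member share at day 6 was 6.79% ± 0.28 in K19R and 5.71% ± 0.22 in FLAG-WT, a ratio of 1.19 in place of 1.53. At day 10 it was 3.98% ± 0.040 in K19R and 3.86% ± 0.36 in FLAG-WT, a ratio of 1.03 in place of 1.27, and there the libraries overlapped. Fold changes of single genes below are on the TMM scale.

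At day 0 few members differed between the lines. In edgeR's quasi-likelihood test with Benjamini-Hochberg adjustment over all genes, 1 member was called higher in K19R and 1 lower, where 5.51% of the 19092 genes tested were called higher and 4.98% lower. Rpl12, at the base of the stalk, was higher by 0.28 ± 0.08 (log2 fold change ± SE, adjusted p = 0.0255). Rps27l was lower, with 117 and 121 CPM in K19R against 148 and 140 CPM in FLAG-WT, and a log2 fold change of -0.28 ± 0.07 (adjusted p = 0.00983). Each call was lost on leaving out K19R replicate 1 or FLAG-WT replicate 1, that of Rpl12 also without FLAG-WT replicate 2 and that of Rps27l also without K19R replicate 2. Fitted on the day 0 libraries alone, the test called 15 members higher and 7 lower. That fit called 2121 of all genes higher and 1893 lower, in place of 1052 and 951. The median over members was 0.04 on the log2 scale and over all genes -0.00.

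At day 2 most members were higher in K19R, by little. The test called 55 of 83 higher and 1 lower, where 20% of all genes were called higher and 21.8% lower. The median member change was 0.23 (log2), and 81 of 83 were positive, against a median of 0.00 over all genes. The small subunit had 24 of 32 called higher and the large subunit 31 of 51. In 73 members both K19R libraries lay above both FLAG-WT libraries, and in 1 both lay below, where this held for 34.7% and 35.5% of all genes.

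Rpl37a, a large subunit protein, had 267 and 326 CPM in K19R and 190 and 188 CPM in FLAG-WT at day 2, a log2 fold change of 0.65 ± 0.08 (edgeR adjusted p = 2.18e-07). Rpl38, needed in mice for translation of a subset of Hox mRNAs, had 226 and 268 CPM in K19R against 170 and 185 CPM in FLAG-WT (0.48 ± 0.09). Rps19, mutated in Diamond-Blackfan anaemia, was higher by 0.39 ± 0.09 and Rpl11, which binds Mdm2 under ribosomal stress, by 0.31 ± 0.08. The stalk proteins Rplp1 and Rplp2 were called higher, by 0.29 ± 0.08 and 0.32 ± 0.09, and Rplp0 at 0.17 ± 0.08 was not. Rpl5, the partner of Rpl11, was at 0.17 ± 0.07 without passing (adjusted p = 0.0647), and Rpl10a and Rps25, reported as unequally represented among mESC ribosomes, gave 0.12 ± 0.07 (not called) and 0.28 ± 0.07 (called). Rps20 was higher by 0.27 ± 0.08, and Rps27a, made as a fusion with ubiquitin, was at 0.17 ± 0.07 without passing. The 2 K19R libraries of day 2 differed in member share by more than the libraries of any other group, with an SD of 0.675 percentage points. Without K19R replicate 2 the count called higher was 13, and without K19R replicate 1 it was 70. Without FLAG-WT replicate 1 or 2 it was 30 or 29. The calls of Rps19, Rpl11, Rplp1, Rplp2, Rps20 and Rps25 were lost without K19R replicate 2, at log2 fold changes of 0.21, 0.20, 0.17, 0.16, 0.14 and 0.19. Those of Rps20 and Rps25 were also lost without FLAG-WT replicate 1, and those of Rplp1 and Rplp2 without its replicate 2.

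At day 6 members were again mostly higher in K19R. The test called 43 higher and 3 lower, where 28.4% of all genes were called higher and 30.1% lower, and 27 of the 43 were among the 55 of day 2. The median was 0.21 over members (log2), against 0.02 over all genes. The large subunit had 30 of 51 called higher and 0 lower, also at an unadjusted p under 0.05, and the small subunit 13 of 32 higher and 3 lower. In 63 members both K19R libraries lay above both FLAG-WT libraries and in 9 both lay below. Over all genes this held for 39.5% and 38.2%. Fitted on the day 6 libraries alone, the test called 63 members higher and 3 lower, with a member median of 0.27. That fit called 5703 of all genes higher and 5442 lower. Leaving out 1 library at a time, the member median lay between 0.17 and 0.24. It fell to 0.17 without replicate 2 of either line, and was 0.23 without K19R replicate 1 and 0.24 without FLAG-WT replicate 1.

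Rps2, a small subunit protein at the mRNA entry side, had 2111 and 2298 CPM in K19R and 1483 and 1384 CPM in FLAG-WT at day 6, a log2 fold change of 0.62 ± 0.08 (edgeR adjusted p = 1.46e-07). Rpl8 had 1689 and 1815 CPM in K19R against 1228 and 1130 CPM in FLAG-WT (0.57 ± 0.08). Rps6, the substrate of S6 kinase below mTORC1, was higher by 0.40 ± 0.07, Rplp0 by 0.40 ± 0.08, Rpsa, also known as a laminin-binding protein, by 0.37 ± 0.08, and Rpl10a by 0.45 ± 0.07. Rpl22, which has the copy Rpl22l1, had 449.6 and 454 CPM in K19R against 337 and 339 CPM in FLAG-WT (0.42 ± 0.08). The 3 called lower were small proteins of the small subunit, Rps21 at -0.40 ± 0.11, Rps28 at -0.36 ± 0.10 and Rps29 at -0.29 ± 0.11. Rps21 had 169 CPM in each K19R library and 220 and 227 CPM in FLAG-WT. Under library totals none of these 3 passed, and they were at -0.044, -0.0032 and 0.069. The Rps29 call was also lost without K19R replicate 2 and without FLAG-WT replicate 2.

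At day 10 fewer members differed. The test called 18 higher in K19R and 5 lower, where 33.2% of all genes were called higher and 25.2% lower, and the median was 0.05 over members and 0.13 over all genes (log2). Of the 18, 14 were also called higher at day 6. With RLE size factors the counts were 5 and 11, with DESeq2 8 and 12, and fitted on the day 10 libraries alone 5 and 5. Without FLAG-WT replicate 1 of day 10 they were 6 and 12, and without its replicate 2 they were 27 and 3. Rps2 kept its difference, with 1005 and 1030 CPM in K19R against 638 and 727 CPM in FLAG-WT and a log2 fold change of 0.57 ± 0.08 (edgeR adjusted p = 6.59e-07). Rpl9 and Rpl23 were lower, by log2 fold changes of -0.30 ± 0.08 and -0.27 ± 0.07. Under library totals neither call held, and the directions turned, to 0.0021 for Rpl9 and 0.037 for Rpl23. Rps10 had 5.00 and 3.90 CPM in K19R and 10.6 and 20.1 CPM in FLAG-WT (-1.78 ± 0.21), on 124 and 91 read pairs in K19R, with the exon overlap given above. The values of every member by day are in the plot of K19R against FLAG-WT changes.

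**Figure D2:**
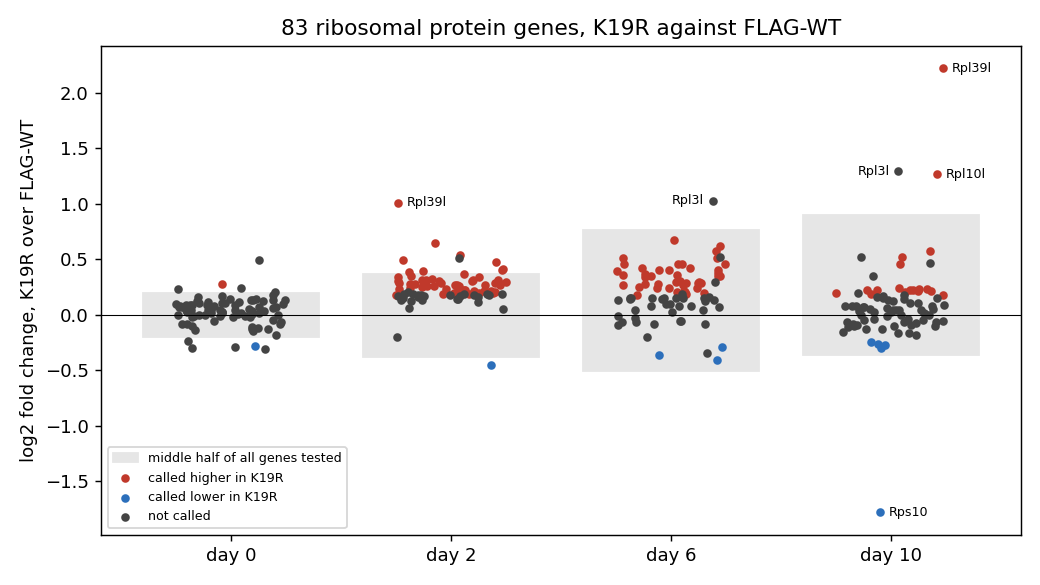
log2 fold change of K19R over FLAG-WT for the 83 ribosomal protein genes (points) at 4 days, coloured by call at an adjusted p of 0.05, over the range between the quartiles of all 19092 genes tested (grey). Points sit mostly above 0 at days 2 and 6, with medians of 0.23 and 0.21, and Rpl39l and Rpl10l stand highest among the called genes at day 10, at 2.22 and 1.27.

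Library composition bears on days 6 and 10. Scaled by library totals alone, 76 members were called higher in K19R and 0 lower at day 6, with a median of 0.57, and 71 higher and 1 lower at day 10, with a median of 0.35. The same scaling moved the median of all genes to 0.38 at day 6 and 0.44 at day 10, and the share of higher among called genes to 72.9% and 77.0%, in place of 48.6% and 56.9% under TMM. A scaling multiplies all genes of a library by 1 factor, so it leaves the member median less the all-gene median as it is. That difference was 0.23 (day 2), 0.18 (day 6) and -0.08 (day 10) on the log2 scale. Leaving out 1 library at a time, it lay between 0.13 and 0.34 at day 2 and between 0.16 and 0.23 at day 6. At day 10 its sign was not stable, at -0.21 without FLAG-WT replicate 1 but 0.02 without its replicate 2 and 0.08 without the filter on low counts.

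**Figure D3:**
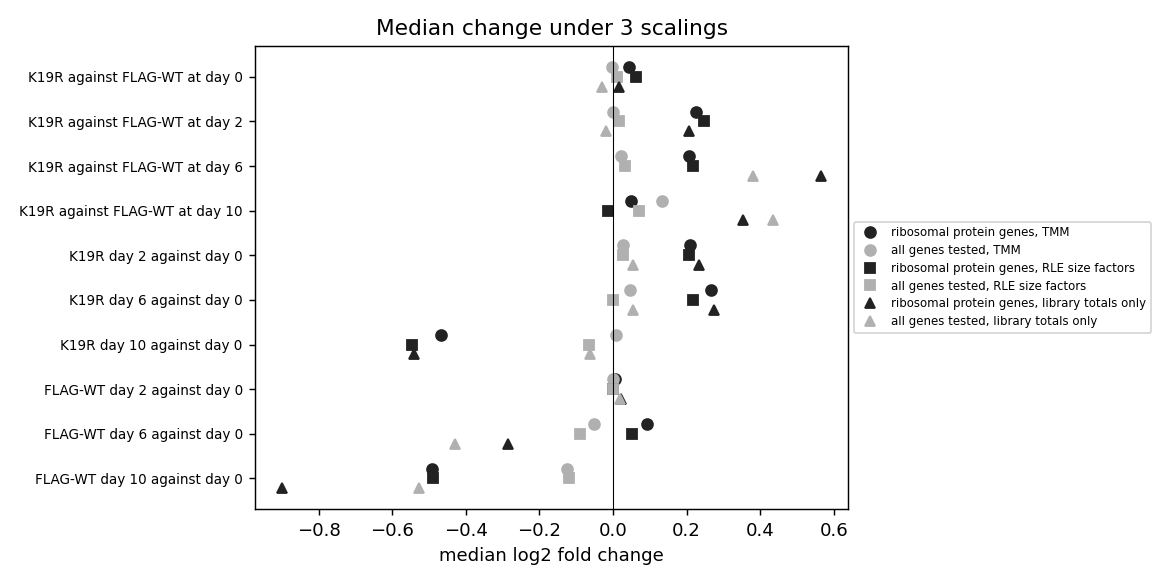
Median log2 fold change of the 83 ribosomal protein genes (black) and of all genes tested (grey) in 10 comparisons under TMM, RLE and library-total scaling. Library totals shift both medians together, as at day 6 of K19R against FLAG-WT, where they stand at 0.57 and 0.38 in place of 0.21 and 0.02.

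Over time, most members were lower at day 10 than at day 0 in both lines, while the FLAG-WT member median stayed near 0 to day 6 under TMM. In FLAG-WT, 5 members were called higher and 11 lower at day 2 than at day 0, where 28.5% of all genes were higher and 27.6% lower. At day 6, 25 were higher and 17 lower, where 37% and 39.1% of all genes were called, with a median of 0.09. At day 10, 2 were higher and 67 lower, against 37% and 40.9% of all genes, with a median of -0.49 over members and -0.12 over all genes (log2). Under library totals the FLAG-WT day 6 counts turned to 3 higher and 61 lower, with the all-gene median at -0.43. Leaving out single FLAG-WT libraries gave between 16 and 22 higher and between 8 and 10 lower at day 6, and between 1 and 3 higher at day 2. Without FLAG-WT replicate 2 of day 0, the library with endoderm marker reads, day 2 had 2 higher and 8 lower, day 6 had 20 and 9, and day 10 had 2 and 64. Fitted on the FLAG-WT libraries of days 0 and 2 alone, 24 members were called higher and 17 lower at day 2. Over all genes that fit called 5902 higher and 5745 lower, in place of 5440 and 5269.

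In K19R, 45 members were higher and 2 lower at day 2 than at day 0, where 28.5% and 27.9% of all genes were called. Without K19R replicate 2 of day 2 the count called higher was 18, and without K19R replicate 2 of day 0 it was 26. At day 6, 49 were higher and 6 lower, against 37.1% and 35.2% of all genes, with a median of 0.27 over members and 0.05 over all genes. At day 10, 1 was higher and 71 lower, against 38.1% and 35.8% of all genes, with a median of -0.47 over members and 0.01 over all. Of the 71 lower in K19R and the 67 lower in FLAG-WT at day 10, 62 were shared, which is 87.3% and 92.5% of the lists. By group means, 80 members in K19R and 73 in FLAG-WT had their lowest level at day 10, and 48 and 43 their highest at day 6.

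Rps2 shows the course of an abundant member. Its K19R libraries had 1653 and 1527 CPM at day 0, 1666 and 1897 CPM at day 2, 2111 and 2298 CPM at day 6, then 1005 and 1030 CPM at day 10. The FLAG-WT libraries had 1559 and 1561 CPM at day 0, 1556 and 1516 CPM at day 2, 1483 and 1384 CPM at day 6, then 638 and 727 CPM at day 10. Its level was thus highest at day 6 in K19R and flat to day 2 in FLAG-WT, and lowest at day 10 in both. Rps19 ran against the set, higher at day 10 than at day 0 by 0.25 ± 0.09 in K19R and 0.29 ± 0.09 in FLAG-WT (log2; edgeR adjusted p = 0.0123 and 0.00417). The Rps19 call was lost in K19R with RLE, with DESeq2, under library totals, and without K19R replicate 1 of day 0 or replicate 2 of day 10, and in FLAG-WT under library totals, where the change was -0.12, and without replicate 2 of day 10.

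The difference between the lines in the change from day 0 was tested as an interaction. At day 2, 20 members had a higher change in K19R and 1 a lower one, where 12.7% of all genes were higher and 14.4% lower. At day 6, 22 had a higher change and 0 a lower one, where the test called 22.1% and 22.4% of all genes; 0 were lower at an unadjusted p under 0.05 or with DESeq2 too. Without K19R replicate 2 of day 6 the 22 were 13, and under library totals 76. At day 10, 8 were higher and 6 lower, where 26.1% and 18.8% of all genes were called. Without FLAG-WT replicate 1 of day 10 these were 5 and 13, and without its replicate 2 they were 17 and 1. Without FLAG-WT replicate 2 of day 0 they were 6 and 3. Rpl37a differed at day 2 by 0.64 ± 0.11 and Rps29 by 0.72 ± 0.16 (log2). Rps2 differed at day 6 by 0.60 ± 0.11 and at day 10 by 0.55 ± 0.11. The day 2 count of 20 was 8 without K19R replicate 2 of that day and 41 without its replicate 1. It was 9 and 13 without FLAG-WT replicate 1 and 2 of day 2, and 11 without K19R replicate 1 or FLAG-WT replicate 2 of day 0.

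Genes that build ribosomes were mostly lower by day 6, when the ribosomal proteins were not under TMM. Of 84 ribosome biogenesis factors, 71 were lower at day 6 than at day 0 in K19R and 72 in FLAG-WT, with 4 and 6 higher, and medians of -0.67 and -1.01 (log2), where 35.2% and 39.1% of all genes were lower, while the member medians were 0.27 and 0.09. All 15 tested genes of RNA polymerase I and its factors, which transcribe ribosomal RNA, were lower at day 6 in K19R and 14 in FLAG-WT. Ubtf, the upstream binding factor of ribosomal DNA, was lower by log2 changes of -2.20 in K19R and -3.16 in FLAG-WT. Mdn1, an ATPase of large subunit maturation, was at -1.07 in K19R and -2.31 in FLAG-WT. The member median was below 0 at day 10 alone among the days sampled under TMM, while under library totals that of FLAG-WT was -0.28 at day 6. The plot of 3 gene lists over time shows the separation at day 6.

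**Figure D4:**
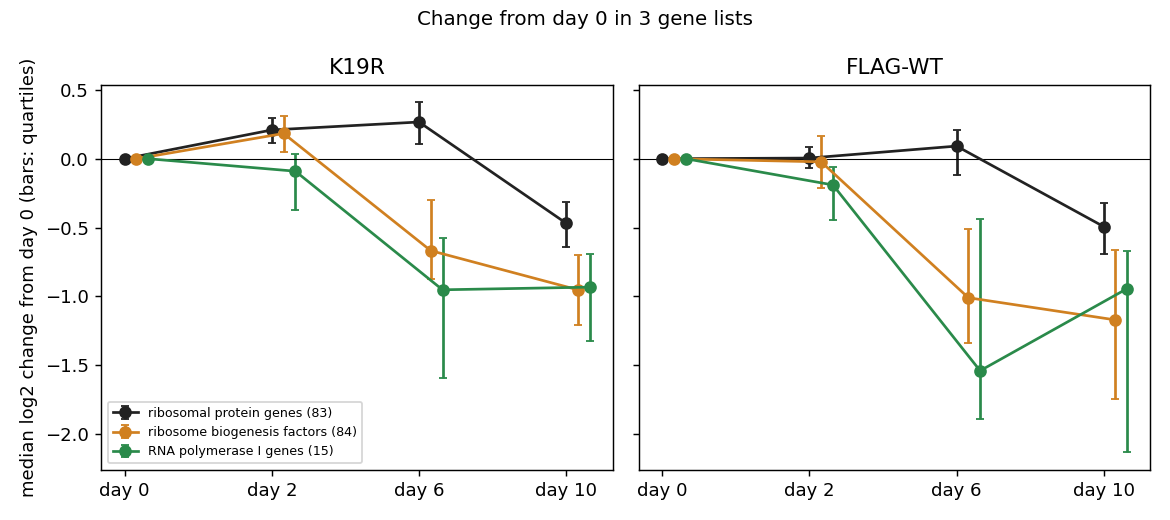
Median log2 change from day 0, with quartiles as bars, of 83 ribosomal protein genes, 84 ribosome biogenesis factors and 15 RNA polymerase I genes in K19R (left) and FLAG-WT (right); the x axis lists the sampled days and is not to scale. At day 6 the ribosomal protein medians are 0.27 and 0.09, and the biogenesis medians -0.67 and -1.01.

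Between the lines, biogenesis factors were mostly higher in K19R at days 2, 6 and 10, like the members at the first 2 of these days. The shares of all genes called higher in K19R were 20%, 28.4% and 33.2% at these 3 days, and the shares called lower 21.8%, 30.1% and 25.2%. Day 2 had 48 of 84 called higher and 6 lower, with a median of 0.23 (log2). Day 6 had 51 and 7 with a median of 0.30, and day 10 had 48 and 17 with a median of 0.25. Polr1a, the largest subunit of RNA polymerase I, was higher in K19R by 1.07 at day 6 and 1.14 at day 10. A list of 10 genes held elongation factors, many of which also carry the oligopyrimidine start, and related proteins. Of these 10, 6 were higher and 1 lower at day 2, and 4 and 1 at day 6. The lower one was Eef2k, the kinase that inhibits Eef2, at -0.82 and -0.37. Of 10 noncoding host genes with such starts, 5 were higher and 1 lower at day 2, with Snhg5 at 1.03 and Epb41l4aos at 0.84, and 1 higher and 6 lower at day 10. Of 77 mitochondrial ribosomal proteins, 33 were higher and 2 lower at day 2, while the 19 and 20 of day 6 were near the shares of all genes. Of 81 oxidative phosphorylation subunits, 5 were higher and 42 lower in K19R at day 6, with a median of -0.21.

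Of 8 ribosomal protein genes outside the name rule, 2 were higher in K19R and 1 lower at day 2, 3 and 0 at day 6, then 0 and 2 at day 10. Rps3a1 had 412 and 421 CPM in K19R against 353 and 366 CPM in FLAG-WT at day 6, a log2 fold change of 0.21 ± 0.07 that passed. Fau, whose product holds a small subunit protein fused to a ubiquitin-like part, was higher by 0.33 ± 0.07 at day 2 and lower at day 10, by a log2 fold change of -0.37 ± 0.07. Rpl22l1 was higher by 0.35 ± 0.11 at day 2. Rack1, a scaffold of the small subunit, passed at no day between the lines. Rpl36al, at no more than 2.33 CPM, was lower in K19R at day 0 (-1.11 ± 0.36). It had 18 and 20 read pairs in K19R there, and 56 and 28 in replicates 1 and 2 of FLAG-WT.

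Of 24 growth regulators, 3 were higher in K19R and 7 lower at day 2, and 6 and 10 at day 6. The shares of all genes called at these days are given above and stood at 20% and 21.8%, then 28.4% and 30.1%. Myc had 19.99 and 20.03 CPM in K19R against 43.7 and 40.3 CPM in FLAG-WT at day 6, and 21.5 and 19.5 CPM in K19R against 93.9 and 90.5 CPM in FLAG-WT at day 10. Its log2 fold changes were -0.94 ± 0.14, -0.16 ± 0.08, -1.07 ± 0.09 and -2.17 ± 0.09 at days 0, 2, 6 and 10, and that of day 2 did not pass. Mycl ran the other way, with 57.2 and 66.8 CPM in K19R and 26.9 and 25.4 CPM in FLAG-WT at day 2, and log2 fold changes of 1.25 ± 0.10 there and 1.53 ± 0.12 at day 6. Mycn, at 196.6 and 189 CPM in K19R and 184 and 185 CPM in FLAG-WT at day 0, passed at no day. Mtor passed at no day, and Larp1 was higher by 0.18 ± 0.07 at day 2 and 0.21 ± 0.07 at day 6. Eif4ebp1, an inhibitor of cap-dependent initiation, was lower in K19R at days 2 and 10, with log2 fold changes of -0.29 ± 0.07 and -0.46 ± 0.07, and higher by 0.23 ± 0.07 at day 0 and 0.25 ± 0.07 at day 6.

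The tissue-restricted copies had the largest changes of all members between day 0 and day 10. Rpl39l, a copy of the exit tunnel protein Rpl39, had 86.9 and 85.2 CPM at day 0, 73.3 and 82.6 at day 2, 4.87 and 4.80 at day 6, then 3.43 and 3.09 CPM at day 10 in K19R. In FLAG-WT it had 72.7 and 74.2 CPM at day 0, 38.0 and 39.4 at day 2, 2.30 and 3.95 at day 6, then 0.527 and 0.865 CPM at day 10. The libraries of day 0 and day 10 were far apart in both lines, and both K19R libraries were above both FLAG-WT libraries at every day. At day 10 against day 0 the log2 fold change was -4.72 ± 0.13 in K19R and -6.71 ± 0.18 in FLAG-WT. Between the lines it was 1.01 ± 0.10 at day 2 and 2.22 ± 0.28 at day 10, where K19R had 85 and 72 read pairs and FLAG-WT 10 and 16. The day 6 difference of 0.68 ± 0.18 was lost without FLAG-WT replicate 1. The change to day 10 differed between the lines by 1.99 ± 0.30 (edgeR adjusted p = 5.65e-06).

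Per kilobase, Rpl39l supplied 49.6% and 48.7% of the summed level of Rpl39l and Rpl39 in K19R at day 0 and 43.2% and 42.7% in FLAG-WT. At day 2 its part was 44.5% and 42.6% in K19R and 31.4% and 30.2% in FLAG-WT, and at day 10 it was 4.70% and 4.14% in K19R and 0.904% and 1.35% in FLAG-WT. Rpl39 itself stayed between 120 and 193 CPM in K19R and between 99.8 and 197 CPM in FLAG-WT at all days. The gene length is the union of annotated exons, so such shares also depend on which exons are used.

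Rpl10l, an intronless copy of the X-linked Rpl10, was also low by day 6. In K19R it had 121 and 110.5 CPM at day 0, 50.4 and 56.7 at day 2, 11.3 and 8.47 at day 6, then 10.2 and 9.48 CPM at day 10. In FLAG-WT it had 127 and 121 CPM at day 0, 76.1 and 70.9 at day 2, 7.57 and 7.26 at day 6, then 4.01 and 4.16 CPM at day 10. K19R was lower than FLAG-WT at day 2, with a log2 fold change of -0.46 ± 0.09, and higher at day 10, by 1.27 ± 0.15 (edgeR adjusted p = 7.87e-08). Its change to day 10 differed between the lines by 1.37 ± 0.17. The day 6 difference of 0.41 ± 0.13 was lost without K19R replicate 1 or FLAG-WT replicate 2. Rpl10l was 24.4% ± 0.33 of its pair with Rpl10 per kilobase in K19R at day 0 and 27.0% ± 1.07 in FLAG-WT, and 3.65% ± 0.27 and 1.71% ± 0.069 at day 10 (SD, n = 2 each).

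Rpl3l was low in all groups, at most 2.63 CPM, and was lower at day 10 than at day 0 by log2 changes of -3.23 ± 0.39 in K19R and -4.04 ± 0.53 in FLAG-WT, on 1 to 9 read pairs at day 10. Its differences between the lines did not pass. Rps4l, typed as a transcribed processed pseudogene, was lower at day 10, with log2 changes of -1.003 ± 0.06 in K19R and -1.23 ± 0.07 in FLAG-WT. Its X-linked partner Rps4x was at -0.51 ± 0.08 and -0.69 ± 0.08 in the same comparisons. Rps27l had 111 and 126 CPM at day 2 in K19R against 117 and 121 CPM at day 0, while FLAG-WT had 78.0 and 84.5 CPM at day 2 against 148 and 140 CPM at day 0. Its K19R to FLAG-WT difference at day 2 was 0.54 ± 0.07, and the change differed between the lines by 0.82 ± 0.10 (log2; edgeR adjusted p = 4.7e-07).

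**Figure D5:**
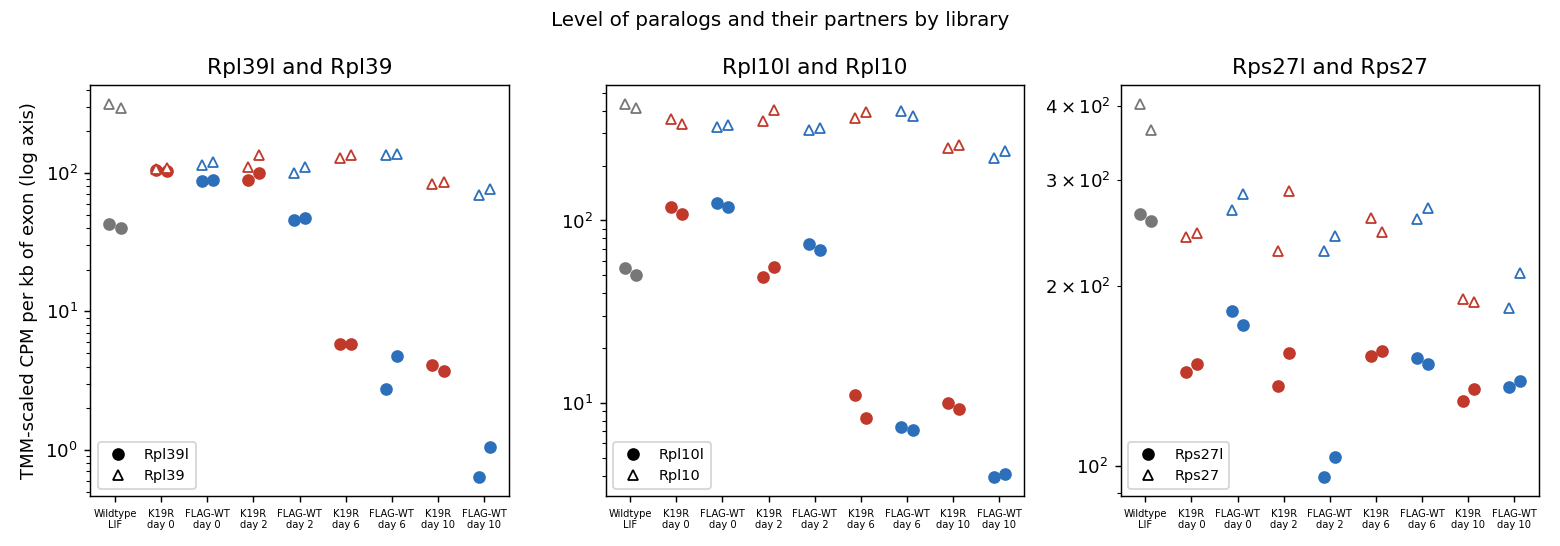
TMM-scaled CPM per kb of exon (log axis) of Rpl39l, Rpl10l and Rps27l (filled circles) and their partners Rpl39, Rpl10 and Rps27 (open triangles) in each library. Rpl39l and Rpl10l drop by day 6 in both lines while their partners do not, and at day 10 the K19R libraries of both copies lie above the FLAG-WT libraries.

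Markers of cell types also differed between K19R and FLAG-WT. At day 2, where the most members were called, 6 of 7 endoderm markers were lower in K19R, with sums between 59.5 and 62.3 CPM in K19R and between 437 and 440.4 CPM in FLAG-WT. Gata4, a transcription factor of endoderm and heart, had 21.1 and 20.2 CPM in K19R against 219 and 214 CPM in FLAG-WT. Of the 8 stem cell markers, 2 were higher and 3 lower at day 2. All 8 were higher in K19R at day 6 and at day 10, with medians of 1.86 and 3.92 (log2). All 7 endoderm markers were lower at day 6, and 3 were lower and 1 higher at day 10. The one higher was Ttr, the thyroxine carrier transthyretin, with 1859 and 2025 CPM in K19R against 1174 and 1037 CPM in FLAG-WT. Neural markers averaged a sum of 20.8 CPM in K19R and 5.45 CPM in FLAG-WT at day 6, with 2 of 4 called higher. Cardiac and muscle markers averaged sums of 33.2 CPM in K19R and 18.4 CPM in FLAG-WT at day 6. At day 10 the sums were 11.4 CPM in K19R and 66.0 CPM in FLAG-WT. Single genes of this list ran in different directions. Actc1 had 295 and 397 read pairs in K19R and 23 and 9 in FLAG-WT at day 6. At day 10 Actc1 had 79 and 93 in K19R against 5 and 0 in FLAG-WT. Myh7 had 116 and 99 read pairs in K19R at day 10, against 906 and 1248 in FLAG-WT. The 4 fibroblast markers (Col1a1, Col1a2, Col3a1 and Thy1) were all higher in K19R at days 6 and 10, and 3 of them at day 2. They summed to between 34.9 and 46.9 CPM in K19R and between 6.84 and 8.35 CPM in FLAG-WT at day 6, where Col3a1 had no counts in FLAG-WT, and to between 49.1 and 53.1 CPM in K19R and between 2.74 and 3.84 CPM in FLAG-WT at day 10. Among blood markers, Hbb-bt had no counts in any group. Their part in the ribosomal protein differences was not tested.

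Wildtype mESCs in LIF differed from FLAG-WT mESCs in 2i in most members, and in both directions. The test called 50 higher and 18 lower, where 32.4% of 19296 genes were called higher and 32.5% lower. The median was 0.28 over members (log2) and 0.00 over all genes, and single members ran from -2.05 to 2.45, with an SD over members of 0.68. By subunit, 23 of 32 small subunit members were higher and 3 lower, and 27 of 51 large subunit members were higher and 15 lower. The groups differ at once in the knock-in, the 2i inhibitors and the count table, which cannot be told apart here.

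Rpl39 had 454 and 419 CPM in wildtype mESCs and 165 and 172 CPM in FLAG-WT, a log2 fold change of 1.38 ± 0.08 (edgeR adjusted p = 6.59e-15), while its copy Rpl39l was lower, with 35.8 and 33.2 CPM against 72.7 and 74.2 CPM. Rps21 was higher by 1.13 ± 0.11 and Rpl3 by 1.05 ± 0.08. Rpl29 had 52.1 and 45.5 CPM in wildtype mESCs and 206 and 195 CPM in FLAG-WT, a log2 fold change of -2.05 ± 0.09. Rpl23a, which lies by the exit tunnel, had 230 and 202 CPM against 798 and 801 CPM (-1.89 ± 0.08), and 62.3% of its exon bases are shared with Tlcd1 or Snord42b. Rpl24 and the pseudogene Rpl32l, at 2.45 ± 0.39 and -1.38 ± 0.53, were called at under 3 CPM in all 4 libraries, and the Rpl32l call was lost without FLAG-WT replicate 1 or wildtype replicate 2. The 4 fibroblast markers were all higher in wildtype mESCs, summing to between 102 and 111 CPM against 8.84 and 9.59 CPM in FLAG-WT, and their part was not tested. Of 6 ribosomal stress and p53 genes tested, 0 were higher and 5 lower, with Trp53 at -1.13 and Cdkn1a at -1.05.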

How the data were processed

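Total RNA of 18 libraries was sequenced. The deposited values are whole counts of read pairs per gene name, made by the authors with featureCounts 1.6.3 (16 FLAG-EED libraries) and 1.6.4 (wildtype), per the file headers. The headers name GENCODE vM19 on GRCm38 and pairs with both ends mapped, without strand and without multi-mapping reads, so reads shared by near-identical copies and pseudogenes were not counted. STAR 2.7.0c and Trim Galore 0.6.0 are named in the submitters' processing notes.

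Genes were kept by edgeR's filterByExpr (minimum count 10, minimum total 15) and tested with edgeR 4.0.16 (R 4.3.3) quasi-likelihood fits, TMM scaling and Benjamini-Hochberg adjustment over all genes at 0.05. The 16 FLAG-EED libraries were fitted together (19092 genes), and all 18 for the wildtype comparison (19296 genes). CPM use one TMM scaling of all 18 libraries. The script was tested on simulated data. DESeq2 1.42.0 and other settings served as alternatives. Named members were the 5 highest and 5 lowest per kilobase, the 3 largest called changes in each direction in 7 of the 14 comparisons, those with close copies and those with known roles; other genes named were chosen after their values were seen. The members and gene lists were chosen with earlier results of these data known. One gene that the naming rule covers is not reported here.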

Additional observations from a re-analysis of the deposited data

Results flagged for a closer look

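The change from day 0 differed between K19R and FLAG-WT in the members below, each by edgeR's quasi-likelihood test of that difference, with Benjamini-Hochberg adjustment over all genes. Values are the K19R change minus the FLAG-WT change on the log2 scale, so a positive one is a higher change in K19R. For the change to day 2, 20 members were higher and 1 lower, where 12.7% and 14.4% of all genes were called. Those singled out by the naming rule or by size were Rps27l at 0.821, Rpl39l at 0.782, Rps29 at 0.723, Rpl37a at 0.638, Rpl38 at 0.607, Rps19 at 0.534, Rps28 at 0.489, Rps21 at 0.47, Rpl29 at 0.401, Rps25 at 0.363, Rpl39 at 0.354, Rps20 at 0.351, Rps27 at 0.318, Rps4l at 0.315 and Rpl10l at -0.353. For the change to day 6, 22 members were higher, where 22.1% of all genes were, a share near that of the members. They include Rps2 at 0.595, Rpl10l at 0.51, Rpl8 at 0.456, Rpl22 at 0.438, Rpl29 at 0.409, Rpl10a at 0.4, Rps6 at 0.384, Rpl23a at 0.362, Rpl3 at 0.327, Rps27l at 0.322, Rplp0 at 0.311 and Rpsa at 0.305. For the change to day 10, 8 members were higher and 6 lower, where 26.1% and 18.8% of all genes were called. They include Rpl39l at 1.99, Rpl10l at 1.37, Rps2 at 0.548, Rps29 at 0.442, Rps28 at 0.425, Rpl39 at 0.351, Rpl23 at -0.287, Rpl9 at -0.346 and Rps10 at -1.89. Rps10 rests on few read pairs in K19R at day 10 and shares exon bases with other genes. For Rps29 and Rps28 the libraries of the 2 lines overlapped at day 10, and K19R lay below FLAG-WT at day 0. Rps29 had 164 and 156 CPM per kb in K19R and 130 and 162 in FLAG-WT at day 10. At day 0 it had 206 and 257 in K19R and 265 and 308 in FLAG-WT. Rps28 had 132 and 133 in K19R and 108 and 135 in FLAG-WT at day 10. At day 0 it had 118 and 155 in K19R and 158 and 177 in FLAG-WT. Every one of these contrasts uses the same day 0 libraries of each line, and FLAG-WT replicate 2 of day 0 holds more endoderm marker reads than replicate 1, with 1391 against 43 read pairs of Afp. Without that library, 11, 17 and 6 members had a higher change in K19R to days 2, 6 and 10, and 3 a lower one to day 10.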

How the results depend on the processing

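Scaling and the leaving out of single libraries both moved many counts. Under library totals alone, the K19R against FLAG-WT comparison called 2 members lower at day 0. It called 76 higher with 0 lower at day 6 and 71 higher with 1 lower at day 10. Against day 0, FLAG-WT had 11 higher at day 2, 3 higher with 61 lower at day 6 and 0 higher at day 10, and K19R had 0 higher at day 10. The differences in change gave 76 higher at day 6, and 57 higher with 1 lower at day 10. With RLE size factors, K19R against FLAG-WT gave 3 higher at day 0, then 5 higher with 11 lower at day 10, the difference in change at day 10 gave 5 and 11, and K19R had 0 higher at day 10 than at day 0. DESeq2 gave 3 higher, 8 and 12, 4 and 11, and 0 for the same 4 results.

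Without the low-count filter, day 0 gave 2 higher and 4 lower, FLAG-WT day 2 gave 9 higher and the difference in change at day 10 gave 13 higher. Fitted on the groups compared alone, K19R against FLAG-WT gave 15 higher and 7 lower at day 0 and 5 higher at day 10. In such fits FLAG-WT day 2 gave 24 and 17, and FLAG-WT day 6 gave 40 higher. Over all genes, the K19R against FLAG-WT fits called 2121 higher and 1893 lower at day 0, and 4962 higher at day 10. The fit of FLAG-WT day 2 called 5902 and 5745 of all genes, and that of FLAG-WT day 6 called 6888 higher. With pseudogene counts added, or without pseudogene-typed and low members (chosen after seeing the data), FLAG-WT day 10 had 1 higher, and in the second case K19R day 2 had 1 lower. On the TMM library size, log2 ratios of member shares were 0.25 and 0.045 for K19R against FLAG-WT at days 6 and 10, 0.094 for FLAG-WT day 6 against day 0 (reversed), -0.47 for FLAG-WT day 10 and -0.48 for K19R day 10. Without length scaling 1 of the 5 highest members stayed.

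With a replicate block, 4 members were lower at day 0, and no other member count moved by over 1.5 times. The replicate numbers did not pair the samples, with correlations of deviations between -0.030 and 0.048.

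Leaving out 1 library at a time, K19R against FLAG-WT ranged over 0 to 2 higher and 0 to 3 lower at day 0, 13 to 70 higher at day 2, and 6 to 27 higher and 3 to 12 lower at day 10. FLAG-WT against day 0 ranged over 1 to 3 higher at day 2, 16 to 22 higher with 8 to 10 lower at day 6, and 0 to 2 higher at day 10. K19R ranged over 18 to 60 higher and 1 to 3 lower at day 2 and 0 to 1 higher at day 10. Differences in change ranged over 8 to 41 higher and 0 to 1 lower at day 2, 13 to 22 higher at day 6, and 5 to 17 higher and 1 to 13 lower at day 10.

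Under library totals these members turned direction. In K19R against FLAG-WT at day 6, Rpl10 was at 0.33, Rpl39 at 0.31, Rps19 at 0.27, Rps27 at 0.30, Rps29 at 0.069 and Rps4l at 0.29. At day 10, Rpl11 was at 0.25, Rpl22 at 0.18, Rpl23 at 0.037, Rpl38 at 0.21, Rpl5 at 0.30, Rpl9 at 0.0021, Rps25 at 0.17, Rps27 at 0.24, Rps27a at 0.30 and Rps27l at 0.24. Rps19 in FLAG-WT at day 10 against day 0 was at -0.12. The cause of these moves beyond the scaling was not tested. Of the other values of named members under alternatives, 1917 kept their side of the threshold, 69 gained a call and 93 lost one. Among the 1917, direction was compared only for members that passed in both fits. With 2 libraries a group, differences of the size seen at day 2 depend on single libraries.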

Other observations

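Wildtype mESCs in LIF against FLAG-WT mESCs also differed in genes beside the ribosomal proteins. Of 84 ribosome biogenesis factors, 47 were called higher and 18 lower, with a median log2 fold change of 0.23, where 32.4% and 32.5% of all genes were called. Of 10 noncoding host genes with oligopyrimidine starts, 9 were higher and 1 lower, with a median of 0.97, and Gas5 was at 1.46 ± 0.09. Of 77 mitochondrial ribosomal proteins, 22 were higher and 39 lower, with a median of -0.20.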
